A study of Homo sapiens with 7 samples.

Results

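ETS transcription factors were followed as a group in SUM159 cells depleted of SHP2. The 10 genes were ETS1, its closest relative ETS2, FLI1, the ELF genes ELF1, ELF2 and ELF4, the ternary complex factor ELK3, and the PEA3 genes ETV1, ETV4 and ETV5. They were chosen by name, and a gene counted as measured where a probe set carried its symbol and no other. All 10 had 1 such probe set, among 18417 genes measured. Of the 28 human ETS family genes, 27 were measured in this way, and the others are used only for comparison.

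SUM159 is a triple-negative breast cancer cell line of mesenchymal character. It carried doxycycline-inducible hairpins, either a control (Ctrl shRNA, 2 arrays; CTRL miR in the sample labels) or one against SHP2 (SHP2 sh1, 2 arrays, SHP2 miR1; SHP2 sh2, 3 arrays, SHP2 miR2). All 3 groups received doxycycline, refreshed every 2 days, and were grown for 15 days in 2-dimensional culture before total RNA was taken, so the controls share the drug and an expressed hairpin. The labels do not say whether the hairpin lines were clones or pools, nor whether a group's arrays represent independent cultures. The p-values therefore reflect array-to-array variation only, part or all of which could be technical. The comparison asks whether ETS transcripts differ when SHP2, which acts upstream of the kinases ERK1 and ERK2, is depleted.

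ETS factors share a winged helix-turn-helix DNA-binding domain that reads a core of 4 bases, GGAA. Many of them are endpoints of RAS-ERK signalling. ERK phosphorylates ETS1 and ETS2 next to their pointed domain, which improves binding of the coactivators CBP and p300, and it phosphorylates ELK3 in complex with serum response factor. The PEA3 genes are themselves transcribed more when the ERK pathway is active, and their proteins are destroyed through the ubiquitin ligase that contains COP1 and DET1. A transcript level on an array therefore reports the amount of mRNA and not the phosphorylation or activity of the protein.

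The SHP2 gene, PTPN11, was at log2 9.53 and 9.18 on the Ctrl shRNA arrays. On the SHP2 sh1 arrays its level was 7.90 and 6.93, and on the SHP2 sh2 arrays 7.96, 7.20 and 7.89, so no SHP2 array overlapped the controls. Averaged over the hairpins this was 3.48-fold lower, with a log2 fold change of -1.80 (SE 0.34, 95% confidence interval -2.62 to -0.98). Even PTPN11, ranked 4 of 18417 genes by unadjusted p, did not pass adjustment over all genes (limma adjusted p = 0.758).

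Among the SHP2 arrays, replicate 2 of SHP2 sh1 and replicate 2 of SHP2 sh2 stood apart from the rest. Over all probe sets the other 5 arrays correlated with each other at 0.981 to 0.992. SHP2 sh1 replicate 2 correlated with those 5 at 0.930 to 0.965 and SHP2 sh2 replicate 2 at 0.886 to 0.936, whereas the pair correlated with each other at 0.972. Their values also spread less, with an SD over probe sets of 2.00 and 1.92 against 2.09 to 2.15 on the others. The fold changes of the members are therefore given with and without this pair. Without it, the PTPN11 log2 fold change averaged over the hairpins was -1.44.

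The summed log2 level of 6 mesenchymal markers was 64.8 to 65.2 in the controls, 64.2 to 66.0 with SHP2 sh1 and 60.5 to 66.6 with SHP2 sh2. Their median difference from the controls was -0.81 on the SHP2 sh2 array that stood apart and -0.13 on that of SHP2 sh1. The markers varied, as seen in those named here after their values were known. VIM lay between log2 11.6 and 12.2 on the 7 arrays and CDH2 between 6.77 and 9.28, while on the pair that stood apart ZEB1 was at 7.33 and 7.01 (8.40 and 8.05 in the controls) and CD44 at 11.2 and 10.7 (11.9 and 11.8). The epithelial marker CDH1 lay between 5.16 and 6.20 on the 5 arrays that resembled each other. On the pair that stood apart CDH1 was at 7.42 (SHP2 sh1) and 7.12 (SHP2 sh2). The summed log2 level of 6 epithelial markers was 28.7 to 29.6 in the controls, 29.6 to 33.2 with SHP2 sh1 and 29.8 to 34.7 with SHP2 sh2. The upper ends were on the pair that stood apart, and SHP2 sh2 replicate 1 was at 31.2. These markers were dim, with a median level of 5.02 to 5.21 in the controls, beside 6.97 to 6.99 for all genes. ETS1 and FLI1 are also known from endothelial and blood cells. For 8 endothelial markers the sum was 46.5 to 49.5 in the controls, 49.1 to 53.0 with SHP2 sh1 and 48.6 to 52.7 with SHP2 sh2, and for 7 measured blood markers it was 44.8 to 45.2, 45.1 to 46.2 and 45.3 to 46.1. On the pair that stood apart (SHP2 sh1, then SHP2 sh2) epithelial markers had a median difference from the controls of 0.47 and 0.90. It was 0.21 and 0.60 for endothelial markers, 0.35 and 0.59 for blood markers, and 0.10 and 0.18 for all genes. The leukocyte marker PTPRC was at 3.90 to 4.75 and the endothelial marker CDH5 at 5.60 to 6.34. Other markers of these lists were not so even. LCP1 of the blood list was at 11.9 and 12.1 in the controls but at 10.04 and 9.69 on the pair that stood apart, and EMCN of the endothelial list, at 5.55 and 4.44 in the controls, was at 8.32 on the SHP2 sh1 array of that pair. Arrays outside the pair varied too. The endothelial marker PECAM1 was at 6.32 and 5.59 in the controls, 7.55 on SHP2 sh1 replicate 1, and 6.05 and 7.05 on SHP2 sh2 replicates 1 and 3. On those arrays the blood marker CD53 was at 5.71 and 5.27, 6.85, and 5.93 and 5.75. The part of these markers in the results was not tested.

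ETS binding is a matter of a short sequence, so the 250 bases before the annotated transcription start are shown for CXCL8, which encodes IL-8 and is the gene the study links to ETS1, and for 3 members described below. ELF1 is the member lower than both controls on every SHP2 array, ETV1 has the widest range of the PEA3 genes, and ELK3 has the only extended core among the members' windows. The windows are reference sequence from RefSeq, build GRCh38.p14, and capitals mark each GGAA, or TTCC where the core lies on the other strand. CXCL8 is chr4:73740319-73740568 on the plus strand, ELF1 chr13:41061387-41061636 on the minus strand, ETV1 chr7:13991426-13991675 on the minus strand and ELK3 chr12:96194125-96194374 on the plus strand.
CXCL8: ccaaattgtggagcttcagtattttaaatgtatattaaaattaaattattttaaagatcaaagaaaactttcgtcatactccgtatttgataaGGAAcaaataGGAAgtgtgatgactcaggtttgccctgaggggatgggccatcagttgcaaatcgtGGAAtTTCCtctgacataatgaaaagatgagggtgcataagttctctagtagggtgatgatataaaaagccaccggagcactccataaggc
ELF1: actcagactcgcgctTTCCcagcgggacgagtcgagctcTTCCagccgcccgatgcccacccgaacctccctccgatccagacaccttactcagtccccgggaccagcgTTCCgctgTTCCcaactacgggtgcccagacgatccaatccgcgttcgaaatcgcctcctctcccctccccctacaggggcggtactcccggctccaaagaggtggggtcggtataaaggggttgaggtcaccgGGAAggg
ETV1: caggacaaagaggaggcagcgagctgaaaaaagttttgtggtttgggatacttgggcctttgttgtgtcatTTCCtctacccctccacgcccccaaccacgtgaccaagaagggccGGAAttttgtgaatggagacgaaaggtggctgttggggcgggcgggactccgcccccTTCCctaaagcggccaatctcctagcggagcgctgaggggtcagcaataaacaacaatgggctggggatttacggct
ELK3: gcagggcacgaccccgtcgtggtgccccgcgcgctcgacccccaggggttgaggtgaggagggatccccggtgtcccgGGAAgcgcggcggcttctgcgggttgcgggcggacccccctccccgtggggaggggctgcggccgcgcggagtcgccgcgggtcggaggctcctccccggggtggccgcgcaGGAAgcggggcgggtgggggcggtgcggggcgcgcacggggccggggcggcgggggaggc

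The table held windows for 6 of the 10 members, without ETS1, FLI1, ETV4 and ETV5. Where a gene had several annotated starts, the outermost was used. The window before ELF1 held 5 GGAA cores on either strand, those before ETS2, ELF4 and ETV1 held 3 each, that before ELK3 held 2 and that before ELF2 held 0. The CXCL8 window held 4. Over all 35116 windows of that length, the median was 3 with quartiles of 2 and 4, and 92.7% held at least 1, so ELF1 lay above the upper quartile and ELF2 below the lower. The extended form AGGAAG was found in 28.7% of windows, among them CXCL8, 148 to 143 bases before the start, and ELK3, 61 to 56 bases before it. CGGAAG was found in 16.5% of windows and in none of those examined here. In CXCL8 the AP-1 sequence TGACTCA lay 137 to 131 bases before the start (4.2% of all windows), and the NF-kB sequence GGAATTTCC 91 to 83 bases before it (0.413%). The latter overlaps 2 of the 4 capitalised cores. A match describes letters and does not show that a factor binds.

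No ETS gene passed the test in any comparison. With limma and Benjamini-Hochberg adjustment at 0.05, 0 of 10 members were called with either hairpin against Ctrl shRNA, with the average of both (called the mean below), and between the hairpins. The same test called 0 of 18417 genes (0%) in each of these comparisons. At an unadjusted p under 0.05 the count was 201 genes (1.09%) for SHP2 sh1, 432 (2.35%) for SHP2 sh2, 358 (1.94%) for the mean and 116 (0.63%) between the hairpins, with 0 members in each. With the pair of arrays left out, 0 genes passed adjustment, and the counts at an unadjusted p under 0.05 were 1917 genes (10.4%) with 1 member (ELF4) for SHP2 sh1, 2233 (12.1%) with 2 members (ELF4 and ELK3) for SHP2 sh2, 1539 (8.36%) with 1 member (ELF4) for the mean, and 3463 (18.8%) with 0 members between the hairpins. The fold changes below are therefore measured differences that did not pass adjustment over all genes. In bulk RNA of this kind, fewer cells of a type and less RNA per cell cannot be told apart.

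The direction was nevertheless the same for most members. For the mean, 10 of 10 members lay below 0, with a median log2 fold change of -0.51, where 42% of all genes lay below 0 and their median was 0.075. With the dimmest 25% of genes left out, 51.2% of the remaining genes lay below 0. The members also varied together over the arrays, with a median r of 0.80 over their 45 pairs. The count is therefore not one of 10 separate results. Without the arrays that stood apart, 7 of 10 were below 0 and the median was -0.17, against 49.3% and a median of 0.0018 for all genes. The count also changed with the scaling, to 9 of 10 under cyclic loess and under quantile normalization, where ETS1 turned above 0. The standard errors of the members ranged from 0.23 for ETS1 to 0.54 for ELF1, beside a median of 0.26 for all genes.

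**Figure D1:**
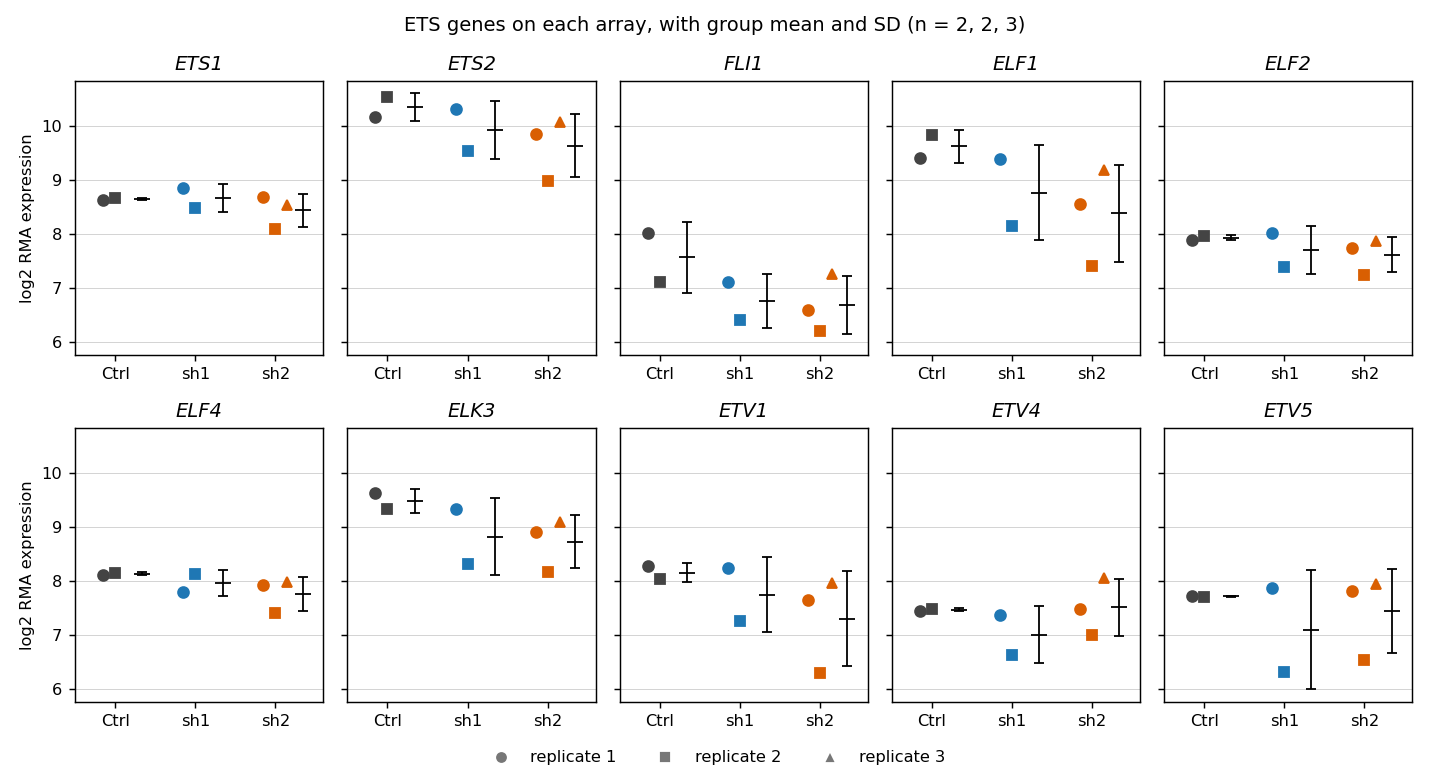
Log2 RMA expression (vertical axis) of the 10 ETS genes on each of the 7 arrays, by group; symbols give the replicate number, and the horizontal marks with bars give the group mean and SD. In 8 of the 10 panels the lowest point is SHP2 sh2 replicate 2 (orange square), and in ETV4 and ETV5 it is SHP2 sh1 replicate 2 (blue square).

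ETS1 is the factor through which the study connects SHP2 to IL-8. The paper bases that link on motif activity and on CXCL8 transcripts after ETS1 siRNA, not on the amount of ETS1 mRNA. For the mean of all arrays, the log2 fold change of ETS1 was the nearest to 0 of the members. With SHP2 sh2 alone ETV4 was nearer to 0, and without the pair of arrays ELF2 was. It was at log2 8.63 and 8.65 on the Ctrl shRNA arrays, at 8.84 and 8.48 on those of SHP2 sh1, and at 8.67, 8.08 and 8.54 on those of SHP2 sh2. Each hairpin had an array above both controls and at least 1 below them, so the groups overlapped. The log2 fold change was 0.02 (SE 0.27) with SHP2 sh1 and -0.21 (SE 0.24) with SHP2 sh2. For the mean it was -0.10, with a 95% confidence interval of -0.64 to 0.44, which leaves room for a change of either sign (limma adjusted p = 0.833). Without the pair of arrays it was 0.08 (SE 0.07). The value for SHP2 sh1 rested on which array was kept, being -0.16 without replicate 1 and 0.20 without replicate 2.

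ETS2, which like ETS1 carries a pointed domain and an ERK phosphorylation site, was at 10.16 and 10.52 in the controls. The SHP2 sh1 arrays gave 10.30 and 9.54, and the SHP2 sh2 arrays 9.85, 8.97 and 10.07. All SHP2 sh2 arrays lay below both controls, while the first SHP2 sh1 array lay between them. The log2 fold change for the mean was -0.57 (SE 0.37), and -0.21 (SE 0.16) without the pair of arrays.

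FLI1, a factor of blood and endothelial development and the ETS partner in Ewing sarcoma fusions, lies beside ETS1 on chromosome 11, with 0 protein-coding genes of RefSeq between them. It was at 8.02 and 7.10 on the control arrays, at 7.10 and 6.39 in the SHP2 sh1 cells, and at 6.58, 6.19 and 7.26 in the SHP2 sh2 cells. The controls themselves were 0.92 apart, the widest control gap of the 10 members, and the second control coincided with the first SHP2 sh1 array. The mean log2 fold change was -0.85 (SE 0.40, 95% confidence interval -1.80 to 0.10), or 1.80-fold lower (limma adjusted p = 0.758). It ranged from -1.31 without the second control to -0.39 without the first. Without the pair of arrays it was -0.55, the lowest of the members. The neighbours ETS1 and FLI1 thus had different values in these arrays, but their difference was not tested.

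ELF1 had the largest difference of the members. It was at 9.40 and 9.83 in the controls, at 9.38 and 8.14 in the SHP2 sh1 cells, and at 8.55, 7.41 and 9.18 in the SHP2 sh2 cells. All 5 SHP2 arrays were below both controls, the first SHP2 sh1 array by only a narrow margin. ELF1 was the only member with this order, which 1321 of all genes shared (7.17%). No member had all 5 SHP2 arrays above both controls, as 8.13% of genes did. The log2 fold change was -0.85 (SE 0.64) with SHP2 sh1, -1.23 (SE 0.58) with SHP2 sh2 and -1.04 (SE 0.54) for the mean, which is 2.06-fold lower (95% confidence interval on the log2 scale -2.33 to 0.24, limma adjusted p = 0.758). Without the pair of arrays the mean was -0.49 (SE 0.28).

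The relatives ELF2 and ELF4 differed less. ELF2 was at 7.89 and 7.96 in the controls, 8.02 and 7.39 with SHP2 sh1, and 7.73, 7.24 and 7.86 with SHP2 sh2, with a mean log2 fold change of -0.27 (SE 0.26) that was -0.02 (SE 0.07) without the pair of arrays. ELF4, which regulates quiescence and cytotoxic functions of lymphocytes, was at 8.11 and 8.15 in the controls, 7.79 and 8.13 with SHP2 sh1, and 7.92, 7.40 and 7.97 with SHP2 sh2. It was the one member that was not below both controls on SHP2 sh1 replicate 2. Its mean log2 fold change was -0.26 with all arrays (SE 0.23) and -0.26 without the pair (SE 0.06, with a single SHP2 sh1 array). These equal means hide opposite shifts, since leaving out the pair moved ELF4 from -0.17 to -0.34 with SHP2 sh1 and from -0.36 to -0.18 with SHP2 sh2.

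ELK3, which represses serum response genes until ERK phosphorylates it, was at 9.63 and 9.33 in the controls. The SHP2 sh1 arrays gave 9.33 and 8.31, and the SHP2 sh2 arrays 8.91, 8.17 and 9.09. Only the first SHP2 sh1 array reached the level of a control, lying just above the second. The mean log2 fold change was -0.71 (SE 0.37), or 1.63-fold lower, and -0.31 (SE 0.14) without the pair of arrays.

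The PEA3 genes, the ETS members whose transcripts are known to follow ERK activity, had different patterns from each other. ETV1 was at 8.28 and 8.03 in the controls, 8.24 and 7.25 with SHP2 sh1, and 7.64, 6.30 and 7.96 with SHP2 sh2. Its SHP2 sh2 arrays all lay below both controls, with a log2 fold change of -0.86 (SE 0.54) that was -0.36 (SE 0.16) without the arrays that stood apart. The mean was -0.63 (SE 0.49), and -0.13 (SE 0.15) without the pair. ETV4 was at 7.45 and 7.48 in the controls, 7.37 and 6.63 with SHP2 sh1, and 7.48, 6.99 and 8.06 with SHP2 sh2. It was below both controls on both SHP2 sh1 arrays, whereas its highest value of all was on SHP2 sh2 replicate 3. With SHP2 sh2 its log2 fold change was 0.04 (SE 0.37), and -0.23 without that replicate. The mean was -0.21 (SE 0.34), and 0.10 (SE 0.21) without the pair.

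ETV5 was at 7.72 and 7.71 in the controls, 7.87 and 6.31 with SHP2 sh1, and 7.81, 6.54 and 7.95 with SHP2 sh2. Its 2 low values were both on the arrays that stood apart, and its 3 other SHP2 values all lay above both controls. The mean log2 fold change was accordingly -0.45 (SE 0.53) with all arrays and 0.16 (SE 0.07) without the pair, and neither passed adjustment (limma adjusted p = 0.758 and 0.630). ETV5 was the only member with the 3 remaining SHP2 arrays above both controls, an order held by 10.1% of genes. ELF1 and ELF4 had these 3 arrays below both controls, as did 8.81% of genes.

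**Figure D2:**
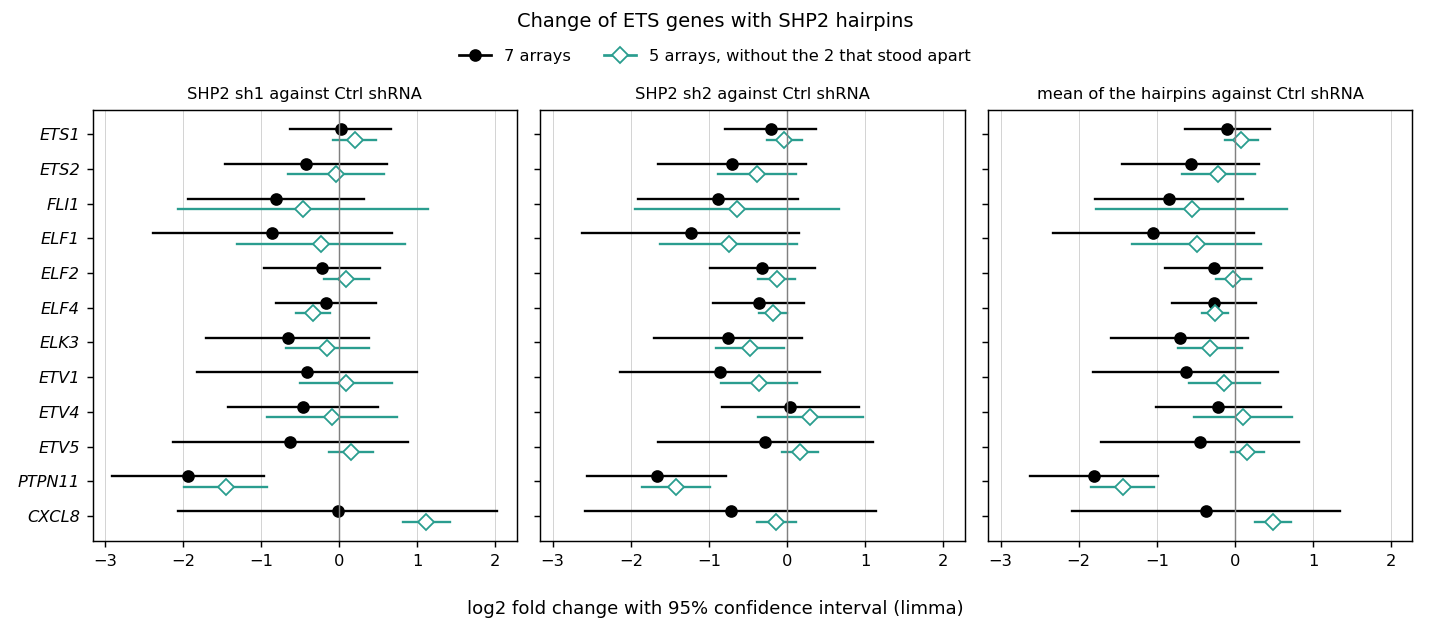
Log2 fold change against Ctrl shRNA with its 95% confidence interval from limma (horizontal axis), for the 10 ETS genes, PTPN11 and CXCL8, in 3 comparisons; black points use all 7 arrays and open diamonds the 5 left without replicate 2 of either hairpin. The ETS intervals with all arrays all include 0, while those of PTPN11 lie below it; the diamond of ETV5 stands at 0.16 for the mean, above 0, where the black point is at -0.45.

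The hairpins are represented by different numbers of arrays, and the members below both controls were counted for each. With SHP2 sh2, all 3 arrays were below both controls for 6 members, ETS2, ELF1, ELF2, ELF4, ELK3 and ETV1, beside 16.1% of all genes. That share covers genes of every level, whereas these 6 lay in groups 8 and 10 of 10 by control level, 10 being the highest. The medians of those groups were below the controls on all 3 SHP2 sh2 arrays, so the comparison is not matched for level. With SHP2 sh1, both arrays were below for 2 members, ELF1 and ETV4, beside 12.3% of all genes. A direct comparison of SHP2 sh2 with SHP2 sh1 gave log2 fold changes from -0.45 for ETV1 to 0.51 for ETV4, all with a limma adjusted p of 1. Without the arrays that stood apart, SHP2 sh2 was below Ctrl shRNA for 8 of 10 members, beside 42.7% of all genes.

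Array by array, the members followed the pair that stood apart. Relative to the control mean, the median of the 10 was -0.07 on SHP2 sh1 replicate 1, -0.87 on SHP2 sh1 replicate 2, -0.35 on SHP2 sh2 replicate 1, -1.24 on SHP2 sh2 replicate 2 and -0.18 on SHP2 sh2 replicate 3. On these arrays 3, 9, 7, 10 and 7 of the 10 members lay below both controls. SHP2 sh2 replicate 2 was the lowest of the 7 arrays for 8 members, and for 30.7% of all genes.

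Well expressed genes in general were lower on the pair that stood apart, so all genes were divided by control level into 10 groups of equal size, and each member was set beside the median of its own level group. On SHP2 sh2 replicate 2, ELF1 was at -2.21 relative to its control mean where the median of its level group was -1.19, and ETV1 was at -1.85 where the median was -0.62. FLI1 was at -1.37 and ETV5 at -1.17 in a level group whose median was -0.20. ETS2 (-1.37 beside -1.19), ELK3 (-1.31 beside -1.19), ELF2 (-0.69 beside -0.62) and ELF4 (-0.73 beside -0.62) stayed near their level group, and ETV4 was at -0.47 beside -0.20. ETS1 was less far below the controls than its level group, at -0.56 beside -0.96. On SHP2 sh1 replicate 2 the same held for ETS1, at -0.16 beside -0.57, and for ELF4, at 0.0035 beside -0.34. FLI1, ETV4 and ETV5 were at -1.17, -0.84 and -1.40 beside a median of -0.06. ELF1 was at -1.47 and ELK3 at -1.17 beside -0.74, ETV1 at -0.90 and ELF2 at -0.53 beside -0.34, and ETS2 at -0.81 lay near its median of -0.74.

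On the 3 other SHP2 arrays the medians of these level groups were between -0.21 and 0.01. On SHP2 sh2 replicate 1, ELF1 was at -1.06 beside -0.21 and FLI1 at -0.98 beside -0.02, so these members were also far below their level group on an array outside the pair. That array nevertheless leaned in the direction of the pair. Its SD over probe sets was 2.09, beside 2.15 on SHP2 sh1 replicate 1 and 2.12 on SHP2 sh2 replicate 3. The median of its highest level group was -0.21, beside 0.01 and -0.04 on those arrays. For FLI1 the second control array was itself at -0.46 relative to the control mean. These positions are descriptions of single arrays and carry no test.

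**Figure D3:**
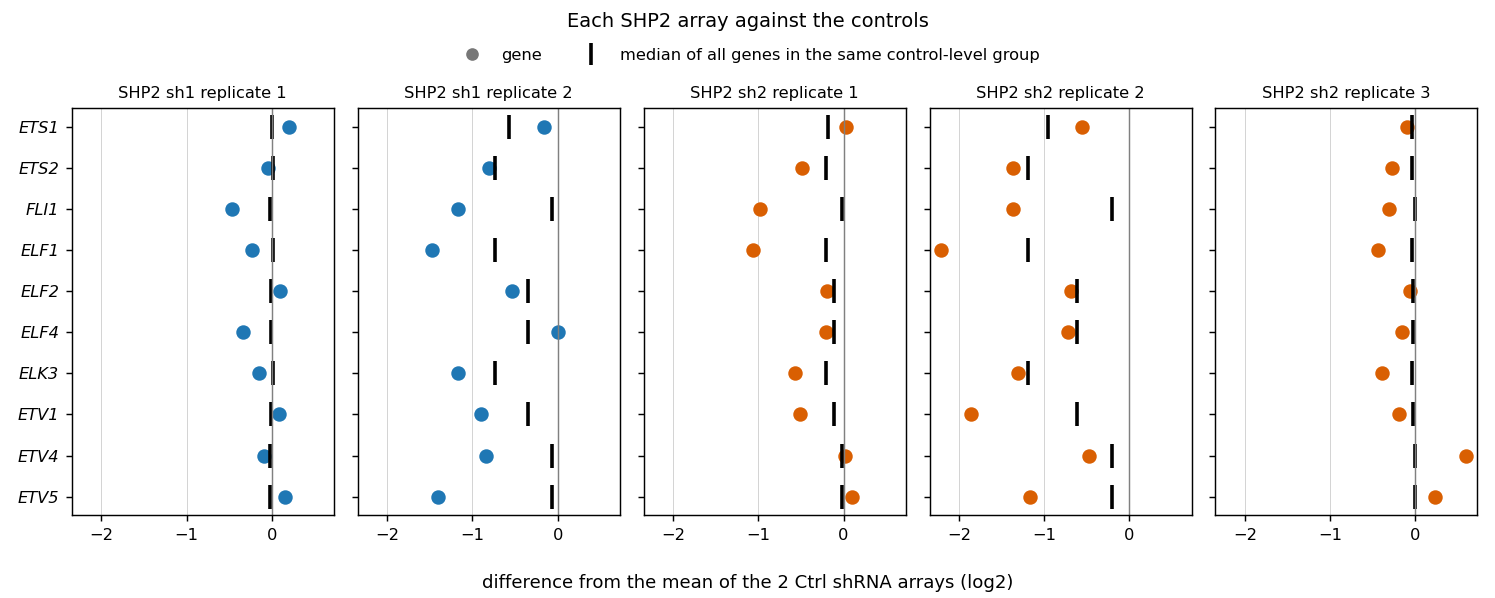
Difference of each ETS gene from the mean of the 2 Ctrl shRNA arrays (horizontal axis, log2) on each of the 5 SHP2 arrays; coloured points are the genes and black ticks the median of all genes in the same level group. ELF1 and FLI1 lie left of their tick on all 5 arrays. For FLI1, however, Ctrl shRNA replicate 2 was itself at -0.46, the value of SHP2 sh1 replicate 1, and SHP2 sh2 replicate 3 was at -0.31. ETS1 lies right of its tick on both arrays that stood apart, at -0.16 beside -0.57 and at -0.56 beside -0.96.

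CXCL8 was at 11.27 and 11.38 in the controls, at 12.44 and 10.18 in the SHP2 sh1 cells, and at 11.12, 9.44 and 11.25 in the SHP2 sh2 cells. Its highest value of all and one of its low values were thus both on SHP2 sh1 arrays, and the groups overlapped. The log2 fold change was -0.01 (SE 0.85) with SHP2 sh1 and -0.72 (SE 0.78) with SHP2 sh2. Without the pair of arrays these were 1.12 and -0.14, so that the remaining SHP2 sh1 array was higher than the controls and the SHP2 sh2 arrays were slightly lower. ETS1 had its highest value on the same SHP2 sh1 array and its lowest on the same SHP2 sh2 array as CXCL8. This was not particular to ETS1, since ELF2 among the members and ERG, ETV3, SPRY4 and DUSP6 outside them shared it. The correlation with CXCL8 over the 7 arrays was 0.94 for ETS1. Among the members it ranged from 0.40 for ELF4 to 0.95 for ELF2. These correlations include the pair that stood apart, and the share of all genes correlating as highly with CXCL8 was not computed.

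Of 17 other ETS family genes measured, 5 were lower and 12 higher for the mean, with 0 called and a median of 0.11, where 10691 of all 18417 genes were also higher. Over the 5 remaining arrays 6 were lower and 11 higher, with a median of 0.02. The genes with the smallest unadjusted p were ELF3, an epithelial ETS factor, at a log2 fold change of 0.33 (SE 0.21), and SPI1, the myeloid factor PU.1, at 0.35 (SE 0.22), both with a limma adjusted p of 0.758. Without the pair they were at 0.31 and 0.17. On the pair that stood apart, where the 10 members were lowest, the median of these genes was 0.27 (SHP2 sh1) and 0.31 (SHP2 sh2). Some better expressed relatives were nevertheless below the control mean on SHP2 sh2 replicate 2. ERG was at -0.87, ELK4 at -0.70, ETV3 at -0.57, GABPA at -0.54 and ERF at -0.43, while ELK1 was at 0.29 and SPI1 at 0.71. The median level of these 17 probe sets in the controls was log2 6.52 to 6.69, and that of the members 8.09 to 8.19.

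From a MAPK output score that as published also counts ETV4 and ETV5, 8 further transcripts were examined as a readout of ERK signalling. For the mean, 7 were lower and 1 higher, with 0 called and a median of -0.35, where 42% of all genes were lower. These 8 genes were not set beside their level groups. Without the pair of arrays 3 of them were lower and 5 higher, with a median of 0.04, where 49.3% of all genes were lower. That mean joins hairpins that differed. The remaining SHP2 sh1 array had 1 lower and 7 higher, with a median of 0.33. For SHP2 sh2 without its replicate 2, 5 were lower and 3 higher, with a median of -0.19. The ephrin receptor gene EPHA4 was below the controls with and without the pair. It was at 8.37 and 8.69 in the controls, 7.79 and 7.87 with SHP2 sh1, and 7.50, 7.27 and 6.87 with SHP2 sh2, all below both controls. Its log2 fold change was -1.01 (SE 0.23) with all arrays and -1.05 (SE 0.26) without the pair, again short of the adjusted threshold (limma adjusted p = 0.758 and 0.551). DUSP6, a phosphatase that acts on ERK, was at -0.73 (SE 0.53), and at -0.15 (SE 0.16) without the pair. The latter joins 0.33 with SHP2 sh1 and -0.63 with SHP2 sh2.

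Of 17 measured genes reported as ETS1 targets, 10 were lower and 7 higher, with 0 called, a median of -0.14 and a range from -1.76 for MMP1 to 0.93 for SPP1. Those 2 were named after their values were seen. On the 5 remaining arrays the list turned to 7 lower and 10 higher with a median of 0.04, and MMP1 was at -0.39 and SPP1 at 1.92. MMP9, a gelatinase, was above both controls on all 5 SHP2 arrays, with a log2 fold change of 0.54 (SE 0.23), and of 0.68 (SE 0.20) without the pair. PARP1, a DNA repair enzyme, was below both on all 5, at -0.94 (SE 0.52), and at -0.40 (SE 0.05) without the pair of arrays. Neither passed (limma adjusted p = 0.758 for each). Genes under one reported regulator therefore lay on both sides of 0.

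Of 16 measured cofactors and regulators of ETS proteins, 8 were lower and 8 higher, with 0 called and a median of -0.04. MAPK3, which encodes ERK1, was at 0.26 (SE 0.16) and TAL1, a partner of ETS factors in blood cells, at 0.46 (SE 0.30), each with a limma adjusted p of 0.758. The COP1 and DET1 genes, named here for their part in PEA3 turnover and after their values were seen, were at -0.44 (SE 0.39) and -0.43 (SE 0.29). With the pair left out the list was split into 11 lower and 5 higher with a median of -0.03, and COP1 was at -0.02, DET1 at -0.17, MAPK3 at 0.24 and TAL1 at 0.16.

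**Figure D4:**
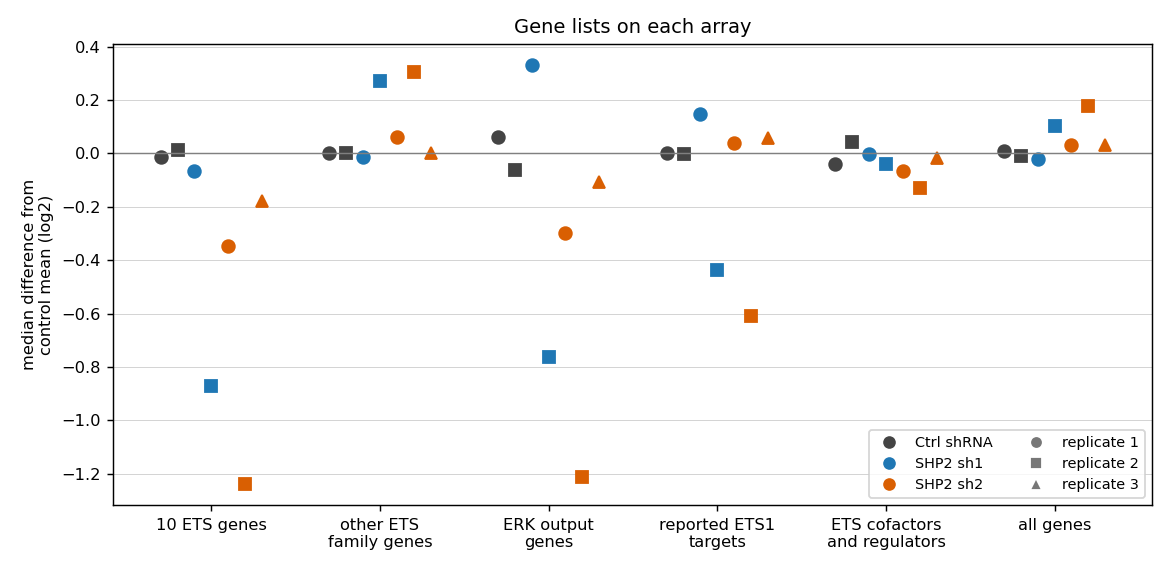
Median difference from the control mean (vertical axis, log2) of the 10 ETS genes, of 4 other gene lists and of all genes on each of the 7 arrays; colours give the group and symbols the replicate number. The 10 ETS genes and the ERK output genes are lowest on SHP2 sh2 replicate 2, at -1.24 and -1.21, where the other ETS family genes stand at 0.31 and all genes at 0.18. The lists are not matched for expression level. On that array the medians of the level groups that hold the 10 ETS genes ran from -0.20 to -1.19.

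The genes whose values over the 7 arrays most resembled those of ETS1 were GPATCH2 (Pearson r 0.996, Spearman rho 0.883), SAMD8 (0.995 and 0.964), TMTC1 (0.992 and 0.821), TSPAN3 (0.987 and 0.991) and CHD1L (0.985 and 0.906). Each was highest on SHP2 sh1 replicate 1 and lowest on SHP2 sh2 replicate 2, as ETS1 was. Such likeness was common, since 5.3% of all genes had an r over 0.9 with ETS1, and all points share the same 7 arrays and the pair that stood apart. TMTC1, for example, was at 9.96 and 9.93 in the controls, 10.44 and 9.66 with SHP2 sh1, and 9.92, 8.53 and 9.63 with SHP2 sh2.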

How the data were processed

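Total RNA of 7 SUM159 samples was hybridised to Affymetrix Human Gene 1.0 ST arrays. The authors normalised the arrays by robust multi-array averaging in the R package oligo, for which the sources used here give no version. The deposited log2 values were used without change. The labels name a column kit for RNA extraction and the array methods TRIzol. RMA pulls all arrays to one distribution of probe intensities, so a change shared by most genes would not be seen. The number of arrays limits the precision.

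Of 33297 probe sets, 19460 carried 1 gene symbol, 1754 several and 12083 were not listed in the platform annotation, which can be old. Where a gene had several probe sets (769 of 18417 genes), the one whose values spread most (interquartile range across arrays) was kept. Group means of Ctrl shRNA, SHP2 sh1 and SHP2 sh2 were fitted over 7 arrays with limma 3.58.1 in R 4.3.3 (lmFit, eBayes), and p-values were adjusted by Benjamini-Hochberg over all 18417 genes at 0.05. The fit was tested on simulated data. The members, gene lists and tests were chosen with earlier results of these data known. Genes named were the 10 members, PTPN11, CXCL8, the called genes of each list or else the 2 with the smallest unadjusted p, and the 5 most correlated with ETS1. Alternatives were the choice or mean of probe sets, a filter on the dimmest 25% of genes, cyclic loess, quantile and median scaling, an intensity trend, array weights, only the arrays compared, a replicate block, leaving out each array, and leaving out both arrays that stood apart. Upstream windows of 250 bases were read from RefSeq sequence, and figures were drawn with matplotlib 3.10.9.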

Additional observations from a re-analysis of the deposited data

How the results depend on the processing

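Members called stayed at 0 of 10 in all comparisons under every alternative run, and over all genes array weights alone gave any call (30 with SHP2 sh2, 0 of them members; the weights did not converge). Leaving out 1 array gave log2 fold changes of both signs for these results. Against Ctrl shRNA, SHP2 sh1 ranged from -0.16 to 0.20 for ETS1, -0.53 to 0.093 for ELF2, -0.34 to 0.0035 for ELF4, -0.90 to 0.087 for ETV1 and -1.40 to 0.15 for ETV5, and SHP2 sh2 from -0.23 to 0.30 for ETV4 and -0.54 to 0.17 for ETV5. Between hairpins the range was -0.67 to 0.10 for ETS2, -0.42 to 0.28 for FLI1, -1.003 to 0.24 for ELF1, -0.41 to 0.22 for ELF2, -0.61 to 0.41 for ELK3, -0.94 to 0.053 for ETV1 and -0.43 to 1.12 for ETV5. With both arrays that stood apart left out, signs turned to 0.082 for ETS1, 0.10 for ETV4 and 0.16 for ETV5 (mean of both hairpins), to 0.093 for ELF2, 0.087 for ETV1 and 0.15 for ETV5 with SHP2 sh1, to 0.17 for ETV5 with SHP2 sh2, and to 0.15 for ELF4 between hairpins. Cyclic loess gave ETS1 0.067 (SHP2 sh2) and 0.13 (mean) and ELK3 0.025 (between hairpins), and quantile normalization 0.029, 0.10 and 0.010. Array weights gave, between hairpins, ETS2 0.041, FLI1 0.40, ELF1 0.24, ELF2 0.092, ELK3 0.18 and ETV1 0.047, with ETV4 at 0.0096 (mean) and ETV5 at 0.095 (SHP2 sh2). The cause was not tested.

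The numbers were not taken to pair the samples, since the labels name nothing shared and not every pair deviated together. Deviations of same-numbered Ctrl shRNA and SHP2 arrays correlated at -0.06 to 0.02. Those of SHP2 sh1 and SHP2 sh2 correlated at 0.62 for replicate 1 and 0.85 for replicate 2, both arrays that stood apart being replicate 2. The differently numbered SHP2 sh1 replicate 1 and SHP2 sh2 replicate 3 correlated at 0.81. In a group of 2 arrays the deviations mirror each other, so the values of the 2 SHP2 sh1 arrays are not separate. The replicate block moved ETV4 with SHP2 sh2 to -0.23, called 0 members and raised genes at an unadjusted p under 0.05 from 432 to 3323 with SHP2 sh2, with 0 called after adjustment. Without Ctrl shRNA replicate 1 and replicate 2 in turn, FLI1 was -0.39 and -1.31 for the mean.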
